A study of Dicentrarchus labrax with 10 samples.

Results

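Aquaporin 1 (aqp1) and carbonic anhydrase were measured in the gonads of juvenile European sea bass by 8 of the 24200 probes of a custom oligonucleotide array, 4 probes for each gene, out of 11705 sequences that the array represents. The aqp1 probes were CUST_12361_PI416070213, CUST_12362_PI416070213, CUST_12363_PI416070213 and CUST_55_PI416268254. The carbonic anhydrase probes were CUST_17662_PI416070213, CUST_17663_PI416070213, CUST_17664_PI416070213 and CUST_110_PI416268254, and the names are shortened to the part before PI from here on. They were picked by probe name, with their levels in these fish already known, and no other probe of the array carried the same sequence identifiers. Levels of the 8 probes, their differences between groups and their joint variation are therefore descriptions, given with no test.

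The study asked whether warm rearing early in life changes the transcriptome of the differentiating gonad. The HT group was reared at 21 °C and the LT group at 15 °C between 20 and 60 days post hatching (dph), after which the LT fish were warmed to match, and gonads were taken at 170 dph. Each group holds 5 fish, each hybridised alone with a single dye, and all 10 were picked from larger samples for high expression of the aromatase gene cyp19a1a in the gonad, which marks putative females. Each regime had a single tank, so that effects of tank and of temperature cannot be told apart, and the fish are replicates within a tank.

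Aquaporin 1 is a membrane channel through which water follows an osmotic gradient, and in marine teleosts that spawn floating eggs a member of this family lets water into the maturing oocyte. Carbonic anhydrase is a zinc enzyme that turns carbon dioxide and water into bicarbonate and protons, and it works beside ion transporters wherever epithelia move acid, salt and fluid. It is also among the most abundant enzymes of red blood cells, which any gonad sample may hold. The sources used here do not say which copy of either gene the probes read, and the place of the probes in the genome was not analysed here.

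The primers with which the authors measured both genes by quantitative PCR are shown as the sequence by which each gene was identified outside the array. Each is written 5′ to 3′, and the overlap of these sequences with the array probes was not analysed here.
aqua-Fw: gccagatcagcgtgttcaag
aqua-Rv: acagcaccagctggaaggtt
ca1-Fw: tgccatagttgctaacgcac
ca1-Rv: ctcatgggacagccctaaca

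Every primer is 20 bases long. The aqp1 pair has 55% G and C in both primers, and the carbonic anhydrase pair has 50% in the forward and 55% in the reverse primer. The study names the second gene carbonic anhydrase 1 (ca1) for this assay and uses the symbol ca1 in its array results as well. The description of the array sequence is carbonic anhydrase.

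The median foreground intensity of an array lay between 95 and 234.5 scanner units in the HT group and between 130 and 219.5 in the LT group, over median backgrounds of 18 to 21. HT1, the array of HT replicate 1, stood apart from the rest. Its mean correlation with the other 9 arrays was 0.843, against 0.92 to 0.947 for each of those 9. The array of HT5 was the dimmest, with 69.2% of its probes well above background. Each slide carried 1 HT and 1 LT array, always at the same positions, so position and temperature cannot be told apart either. Values below are normalised log2 intensities unless scanner units are named, a difference of 1 is a 2-fold change, and results that rest on HT1 are given with and without it.

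The aqp1 probes gave low, even levels in the HT gonads and higher, scattered levels in the LT gonads. On the brightest probe, CUST_12363 (CUST_12363_PI416070213), the HT fish had 7.59, 7.47, 7.45, 7.93 and 7.57 in the order of their replicate numbers. The LT fish had 9.36, 8.05, 13.15, 8.56 and 10.52. Every HT fish was thus below every LT fish, although the highest HT fish, HT4, and the lowest LT fish, LT2, were only 0.12 apart. The HT mean was 7.60 ± 0.19 and the LT mean 9.93 ± 2.03 (SD, n = 5 each), a log2 difference of -2.32 (SE 0.82), or 5.01-fold lower in HT fish. Without HT1 the difference was again -2.32 (SE 0.90), and without LT3, the highest fish, it was -1.52 (SE 0.43).

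**Figure D1:**
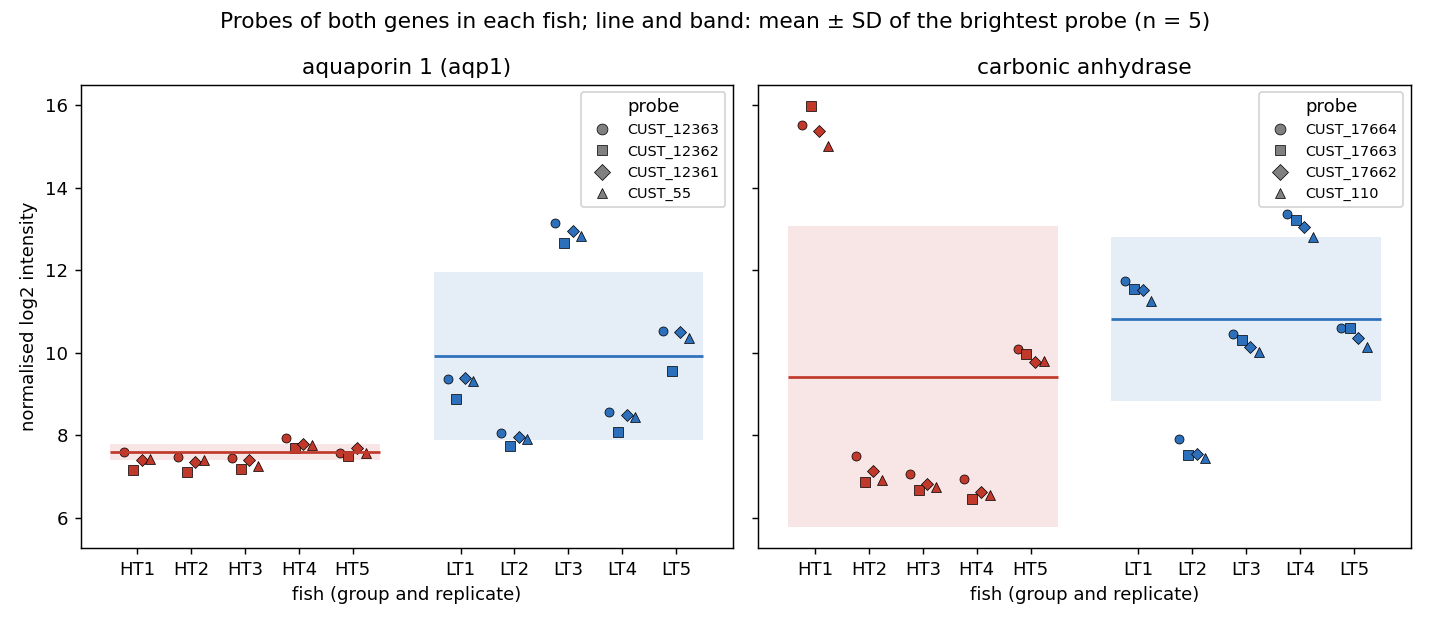
Normalised log2 intensity (vertical axis) of the 4 aqp1 probes (left) and the 4 carbonic anhydrase probes (right) in each of the 10 fish (horizontal axis), HT in red and LT in blue. Marker shapes are probes, and the line and band are the mean ± SD of the brightest probe over 5 fish. The aqp1 levels of the HT fish sit in a narrow band below all LT fish, while HT1 is the highest fish for carbonic anhydrase and HT4 the lowest.

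The other aqp1 probes showed the same order of groups. CUST_12361 ranged from 7.35 to 7.78 in HT fish and from 7.96 to 12.95 in LT fish. CUST_12362 was the dimmest of the 4, at 7.12 to 7.70 in HT fish and 7.75 to 12.67 in LT fish, and its groups were separated by 0.05 only. CUST_55 (CUST_55_PI416268254), which is printed at 15 spots on each array where the others have 2, ranged from 7.26 to 7.78 in HT fish and from 7.91 to 12.82 in LT fish. The log2 differences of the 4 probes lay between -2.33 and -2.06, and the 6 pairwise correlations of the probes over the 10 fish between 0.992 and 0.9995. All 4 probes thus had non-overlapping groups with HT lower, which was true of 185 of all 24200 probes (0.764%), and of 704 (2.91%) when HT1 was left out. Since the members were chosen with this contrast known, nothing is read from that count.

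The separation of the aqp1 groups depended on how arrays were scaled to each other, and LT2 was the fish on which it turned. With the deposited log2 table, with no offset in the background correction, or with spots marked as outliers kept, all 25 pairs of an HT and an LT fish had the HT fish lower on CUST_12363. When the processed signal of the scanner was divided by the 75th percentile of each array, 24 of 25 pairs did. With the same division after normexp background correction 23 did, and with cyclic loess 22. In each of these 3 cases 0 of the 4 aqp1 probes kept groups that did not overlap. Every HT fish was below every LT fish for 0.264%, 0.244% and 1.03% of all probes in these cases, in this order. For the deposited table, no offset and outlier spots kept, the shares were 0.788%, 0.769% and 0.76%. Every pair in which the HT fish was higher held LT2, so the 20 pairs without LT2 had the HT fish lower under each of the 7 scalings. Since LT2 was set aside after its values were seen, nothing is read from those 20 pairs.

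Before any normalisation, CUST_12363 was dim in HT fish, but its median foreground was above the brightest of the 153 negative control spots on every array. That median was 3.59, 3.58, 3.23, 2.90 and 1.82 times the median of the negative controls in the HT fish, and 16.7, 6.29, 203, 6.33 and 25.7 times in the LT fish. These ratios to the controls of the same array did not overlap between the groups. The share of all probes of which that is true was not counted. As the probe was chosen with this contrast known, nothing is read from it. In the background-subtracted signal of the scanner software the HT fish had 34.9 to 141 units and the LT fish 262 to 10870. The lowest unit value was that of HT5, the dimmest array, which after quantile normalisation lay above HT2 and HT3. All 210 aqp1 spots were well above background, and 0 of them were saturated.

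**Figure D2:**
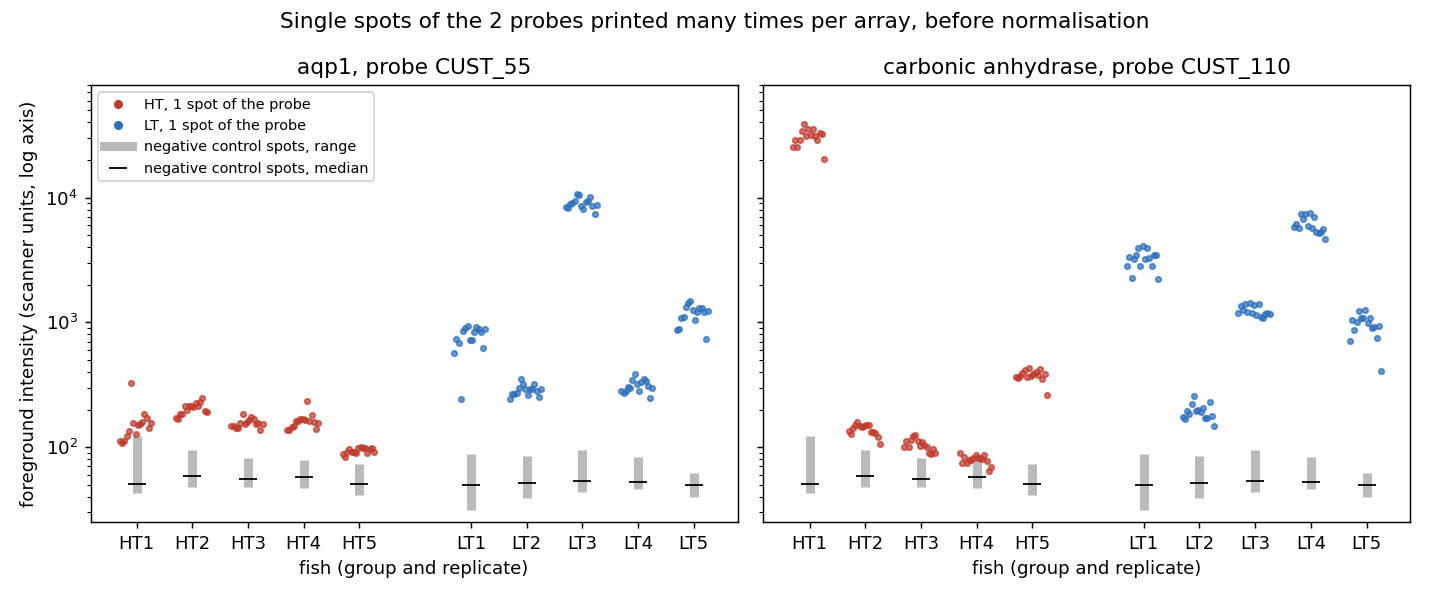
Foreground intensity of single spots (vertical axis, scanner units, log axis) of the aqp1 probe CUST_55 (left) and the carbonic anhydrase probe CUST_110 (right), 15 spots per fish, before normalisation, with HT in red and LT in blue. Grey bars span the 153 negative control spots of each array and black ticks mark their median. The carbonic anhydrase spots of most fish differ more between fish than within 1 fish. For aqp1, LT3 lies far above all other fish, LT2 and LT4 overlap, and LT1 and LT5 overlap in part. The aqp1 spots of HT1, HT2, HT3 and HT4 overlap, while those of HT5 lie below them. Some aqp1 spots of HT1 and some carbonic anhydrase spots of HT4 reach into the range of the negative controls.

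Repeated spots varied less than the LT fish did. Within an array the 15 spots of CUST_55 had an SD of 0.10 to 0.27 on the log2 scale (median of the 10 arrays 0.16). The SD between LT fish on the same probe was 1.94. Between HT fish it was 0.20. The SDs between fish are of means over up to 15 spots, which scatter less than single spots do. The 0.20 therefore cannot be read as no more than spot scatter. The spread of aqp1 over the LT fish was larger than that of nearly the whole array, since 53 of 24200 probes (0.219%) had a larger SD in that group than CUST_12363. In the HT group 71.5% of the probes varied more than CUST_12363 did. That low HT SD depended on the processing. It was 0.19 here, 0.21 with the deposited table and 0.26 with no offset. With the 75th percentile it was 0.38 for the processed signal and 0.36 after normexp, and with cyclic loess 0.37. The LT SD was 2.03 to 2.22 under all of these scalings. The rank of the probe under the other scalings was not counted.

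The order of the fish was LT3, LT5, LT1, LT4, LT2, HT4, HT1, HT5, HT2 and HT3, high to low on CUST_12363. LT3 was 2.63 above LT5, which was 1.16 above LT1. Among the HT fish, HT4 was 0.34 above HT1, and the gaps below HT1 were 0.02, 0.10 and 0.02. On CUST_55 the order of the HT fish was another, with HT4 at 7.78, HT5 at 7.57, HT1 at 7.43, HT2 at 7.41 and HT3 at 7.26, so the probes do not settle the order below HT4. Within slides 1 to 5 the HT minus LT differences were -1.77, -0.58, -5.70, -0.63 and -2.95. That all 5 were negative follows from the groups not overlapping on this probe and adds nothing to it. In whole gonads, fewer cells of a type and less RNA per cell cannot be told apart.

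The carbonic anhydrase probes varied more than aqp1 and did not separate the groups. On the brightest probe, CUST_17664 (CUST_17664_PI416070213), the HT fish had 15.53, 7.49, 7.06, 6.94 and 10.10. The LT fish had 11.75, 7.92, 10.45, 13.37 and 10.60. The HT group therefore held both the highest fish, HT1, and the 3 lowest, while 4 of the 5 LT fish lay above 10. The HT mean was 9.42 ± 3.65 and the LT mean 10.82 ± 1.996 (SD, n = 5 each), a log2 difference of -1.39 (SE 1.67), smaller than its standard error.

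Single fish moved the size of that difference. Without HT1 the HT mean was 7.90 ± 1.49 (SD, n = 4) and the log2 difference was -2.92 (SE 1.05), or 7.56-fold lower in HT fish. The groups overlapped with and without HT1, because HT5 lay above LT2. Without HT2, HT3, HT4 or LT4 the difference was -0.91, -0.80, -0.77 or -0.76, and without LT2 it was -2.12. With array weights, which lower the influence of arrays that scatter, the difference was -3.26 (SE 0.90). HT fish were lower on 4 of 5 slides, with HT minus LT differences of 3.77, -0.43, -3.38, -6.42 and -0.51.

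The 4 carbonic anhydrase probes ranked the 10 fish identically, with pairwise rank correlations of 1 and Pearson correlations of 0.9989 to 0.9999. CUST_17662 ranged from 6.63 to 15.38 in HT fish and from 7.55 to 13.06 in LT fish. CUST_17663 ranged from 6.46 to 15.98 in HT fish and from 7.52 to 13.22 in LT fish. CUST_110 (CUST_110_PI416268254), at 15 spots, ranged from 6.56 to 15.01 in HT fish and from 7.45 to 12.80 in LT fish. Their log2 differences lay between -1.45 and -1.33 over 10 fish and between -3.15 and -2.83 without HT1.

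The range of carbonic anhydrase over the 10 fish was among the widest on the array. The highest and lowest fish differed 384-fold on CUST_17664 and 734-fold on CUST_17663. The highest fish was HT1, and the next, LT4, was at 13.37 on CUST_17664. The size of this range depends on the offset of the background correction, since without it CUST_17664 spanned 6.15 to 15.52, against 6.94 to 15.53 with it. By SD over the 10 fish, 13 of 24200 probes (0.0537%) varied more than CUST_17664, and 96 (0.397%) varied more than the brightest aqp1 probe. The 13 include CUST_17662 and CUST_17663 of the same gene, with SDs of 2.91 and 3.14. These ranks were not counted without HT1. The median SD of all probes was 0.31, against 2.87 for carbonic anhydrase and 1.83 for aqp1.

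The low end of carbonic anhydrase reached the limit of detection. In HT4 the median foreground of CUST_17663 was 1.22 times that of the negative controls, 0 of its 2 spots were well above background, and 4 of the 15 spots of CUST_110 were. Over all fish, 195 of the 210 carbonic anhydrase spots were well above background. At the high end HT1 had a median of 38960 foreground units on CUST_17664, 772 times the negative controls, and no spot was saturated. The scanner software had marked both HT1 spots of that probe as outliers, as it did 9 of the 210 spots of this gene and 4 of the 210 spots of aqp1. The 13 unmarked HT1 spots of CUST_110 averaged 15.01, so the height of HT1 did not rest on marked spots.

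By the call rule of the study, an adjusted p below 0.05 with a fold change above 1.2 and reliable spots in every fish compared, limma called 0 of the 8 member probes over 10 fish, against a background of 0 of 24200 probes (0%). Without HT1 the count was 0 of 8 again, against 0 of 24200 (0%). Some other settings called more probes, as given in the last part, and the members among those were not counted. The study, which left out an HT fish as an outlier, reported carbonic anhydrase as lower in HT fish by this rule. Why the calls differ was not tested. On its array the study also had aqp1 lower in HT fish, but without an adjusted p below 0.05. By quantitative PCR the study reported aqp1 as significantly lower in HT fish, and carbonic anhydrase as lower but not significantly. At an unadjusted p below 0.05, 1712 of all probes (7.07%) passed over 10 fish and 4466 (18.5%) over 9. All 8 member probes met the reliability rule in the 9 fish and 7 in the 10, the exception being the probe CUST_17664 in HT1 with its outlier marks. Meeting the rule does not mean detection, since 23758 of the 24200 probes met it in all 10 fish. CUST_17663 was among them, although HT4 was at 1.22 times the negative controls.

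The levels of both genes varied together weakly over all fish. Between CUST_12363 and CUST_17664 the Pearson correlation was 0.168 and the Spearman correlation 0.479 (n = 10 fish). The 16 pairs of an aqp1 and a carbonic anhydrase probe gave Pearson correlations of 0.129 to 0.176. Of the 24196 probes other than those of aqp1, 28% had a higher signed correlation with CUST_12363 than CUST_17664 had. Of the 24196 other than those of carbonic anhydrase, 38.7% had a higher one with CUST_17664 than CUST_12363 had.

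**Figure D3:**
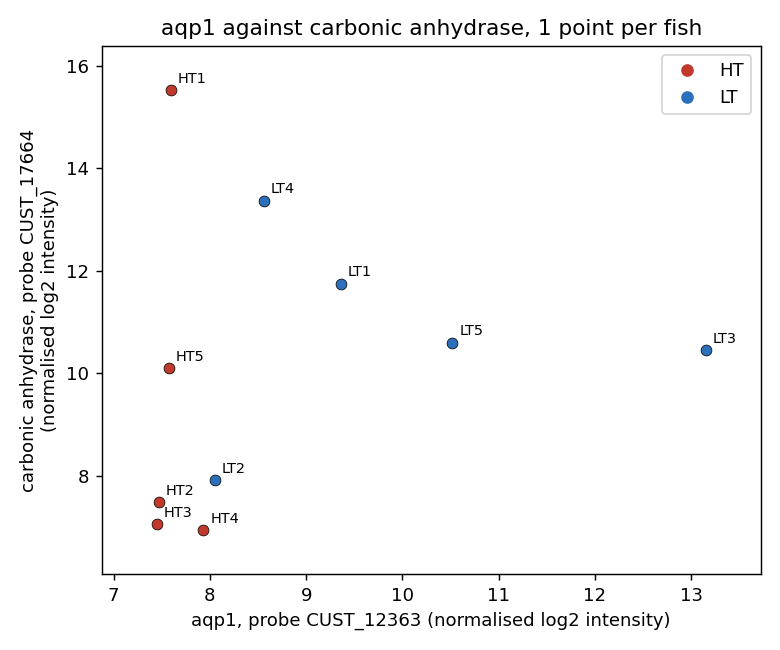
Normalised log2 intensity of aqp1 (horizontal axis, probe CUST_12363) against carbonic anhydrase (vertical axis, probe CUST_17664), 1 point per fish, HT in red and LT in blue. HT2, HT3, HT4 and LT2 are low in both genes, LT3 is highest in aqp1 with a middling carbonic anhydrase level, and HT1 is highest in carbonic anhydrase with a low aqp1 level.

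The size of the joint variation depended on HT1. Without it the Pearson correlation was 0.435 and the Spearman correlation 0.7 (n = 9). Within the groups it was near 0. As deviations from the group means the Pearson correlation was -0.0054 and the Spearman correlation 0.0545 over 10 fish, and -0.0054 and 0.0333 over 9. Without the 2 fish farthest from the median of aqp1, LT3 and LT5, the Pearson correlation was 0.333 (n = 8). Without the 2 farthest from the median of carbonic anhydrase, HT1 and HT4, it was 0.398.

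Fish by fish, the order of the 2 genes differed at both ends. Of the 4 fish lowest in aqp1, HT3, HT2, HT5 and HT1, only HT2 and HT3 were among the 4 lowest in carbonic anhydrase. HT2, HT3 and HT4 and the LT fish LT2 were at most 8.05 for aqp1 and at most 7.92 for carbonic anhydrase. HT5 was low for aqp1, at 7.57, and at 10.10 for carbonic anhydrase, and HT1 was at 7.59 for aqp1 and 15.53 for carbonic anhydrase. Among the LT fish, the highest carbonic anhydrase level was that of LT4, which was next to lowest for aqp1, and the highest aqp1 level was that of LT3, which was next to lowest for carbonic anhydrase.

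LT2 and the 4 HT fish other than HT1 were also the fish with high levels of anti-Müllerian hormone, a signal of the differentiating testis. Its probe CUST_20078 stood at 12.27 to 13.59 in HT2 to HT5 and 13.39 in LT2, and at 7.25 in HT1 and 7.93 to 9.32 in the other 4 LT fish. The 5 fish low in this hormone were all at or above 10.45 for carbonic anhydrase, and HT5 at 10.10 was the highest of the other 5, only 0.35 lower. The share of all probes that part these fish in the same way was not counted, so nothing is read from this split. For aqp1, HT2 to HT5 and LT2 were at 7.45 to 8.05 and the other 4 LT fish at 8.56 to 13.15, while HT1, low in the hormone, was at 7.59. The fish fell into clusters for this gene, so no correlation is given.

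The sequences most like aqp1 over the 10 fish were looked up among the 174 other sequences that the study names by probe. They were aquaporin 8 (Pearson correlation 0.882), WNT1 inducible signaling pathway protein 1 (0.867), T-complex protein 1 subunit alpha, part of a chaperonin that folds actin and tubulin (0.86), phosphoenolpyruvate carboxykinase, an enzyme of gluconeogenesis (0.854), and malate dehydrogenase, an enzyme of the citric acid cycle (0.787). Most of this likeness came from LT3 and LT5. Without those 2 fish the correlations were 0.391, 0.798, 0.408, 0.358 and 0.0842 in the same order, so WNT1 inducible signaling pathway protein 1 was the one that stayed near its value. Phosphoenolpyruvate carboxykinase (CUST_2649) was at 13.16 in LT3 and at 6.80 to 7.80 in the other 9 fish. WNT1 inducible signaling pathway protein 1 (CUST_13925) spanned 7.03 to 7.49 in HT fish and 7.10 to 7.97 in LT fish. T-complex protein 1 subunit alpha (CUST_12128) was low in every fish, at 6.54 to 6.71 in HT fish and 6.595 to 7.02 in LT fish. Its Spearman correlation with aqp1 was 0.406.

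Carbonic anhydrase had closer companions. The 5 most alike sequences were U2AF1-RS2, named for a splicing factor subunit (Pearson correlation 0.989), tubulin delta 1, a centriole protein (0.964), mucin 2, a gel-forming glycoprotein (0.923), eukaryotic translation initiation factor 2B (0.92) and histone H2B, a core nucleosome protein (0.9). Without HT1 the correlations were 0.989, 0.944, 0.861, 0.877 and 0.814, and without HT1 and HT4 they were 0.988, 0.937, 0.836, 0.849 and 0.789. On the whole array 754 of 24196 other probes correlated above 0.9 with CUST_17664, against 51 with CUST_12363. Both counts include HT1, the fish highest in carbonic anhydrase, and were not made without it, so nothing is read from their difference.

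U2AF1-RS2 (CUST_90) followed carbonic anhydrase closely in the 6 fish with the higher levels. The HT fish had 16.05, 7.62, 7.06, 7.22 and 11.13, and the LT fish had 12.71, 7.36, 11.16, 14.23 and 11.93. Both genes were thus highest in HT1, then in LT4 and LT1, and lowest in HT2, HT3, HT4 and LT2, among which the order of the 2 genes differed. The fish formed a low cluster of 4 and a higher one of 6, within which the Pearson correlation with CUST_17664 was 0.995. Tubulin delta 1 (CUST_17712) correlated at 0.997 within the same 6 fish, over a narrower span of 7.92 to 11.12.

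**Figure D4:**
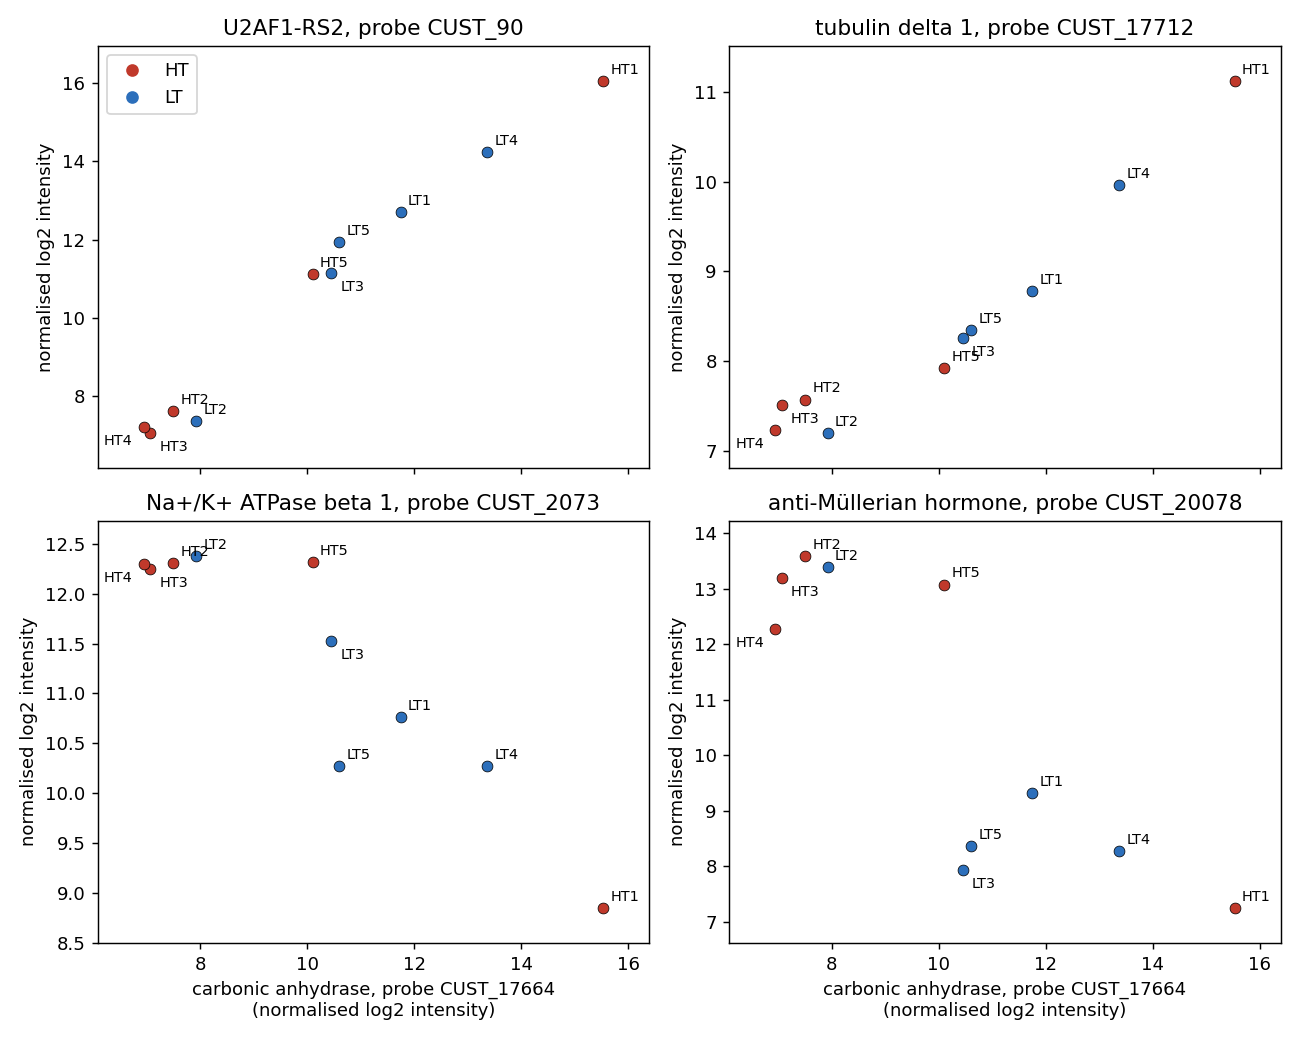
Normalised log2 intensity of carbonic anhydrase (horizontal axes, probe CUST_17664) against U2AF1-RS2, tubulin delta 1, Na+/K+ ATPase beta 1 and anti-Müllerian hormone (vertical axes, brightest probe of each), 1 point per fish, HT in red and LT in blue. U2AF1-RS2 and tubulin delta 1 are higher where carbonic anhydrase is higher among the upper 6 fish, up to HT1, but not in order among the lower 4, and Na+/K+ ATPase beta 1 and anti-Müllerian hormone are lowest in HT1, where carbonic anhydrase is highest.

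Another 6 water and ion transport sequences are named by probe in the study, with 3 probes each. They were aquaporin 8, the catalytic alpha and the accompanying beta 1 subunit of the Na+/K+ ATPase that keeps cells low in sodium, the 16 kDa subunit of the vacuolar proton pump, a solute carrier family member, and solute carrier family 3 member 2, a chaperone of amino acid transporters. By limma, with Benjamini-Hochberg adjusted p-values over the 24200 probes, 0 of the 18 probes were called over 10 fish and 0 over 9. At an unadjusted p below 0.05, 2 of the 18 passed over 10 fish and 5 over 9, where 7.07% and 18.5% of all probes did. With array weights 3 were called (8.38% of all probes were), CUST_14552 and CUST_14553 of aquaporin 8 and CUST_2071 of Na+/K+ ATPase beta 1, all higher in HT fish, and with normexp values divided by the 75th percentile the same 2 aquaporin 8 probes were (2.23% of all probes). By the brightest probe of each, 3 of 6 sequences were lower in HT fish, with a median log2 difference of -0.03, against 0.01 over all probes.

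**Figure D5:**
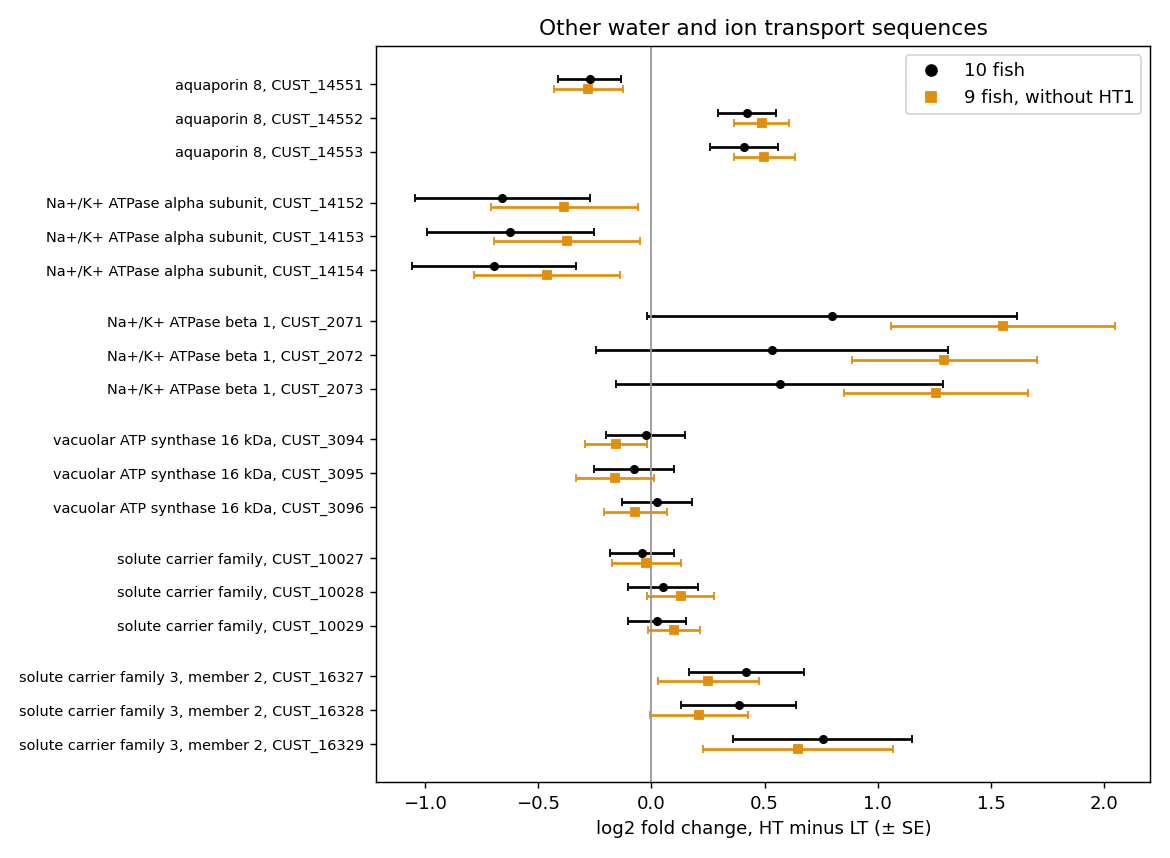
Log2 difference HT minus LT ± SE (horizontal axis) of the 18 probes of 6 other transport sequences (vertical axis), from limma over 10 fish (black) and over 9 fish without HT1 (orange). The aquaporin 8 probes fall on both sides of 0, and the 3 Na+/K+ ATPase beta 1 probes lie between 1.26 and 1.55 without HT1 and between 0.53 and 0.80 over 10 fish.

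Probes of aquaporin 8, a channel for water and small solutes, disagreed with each other in sign, except when normexp values were divided by the 75th percentile of each array, where CUST_14551 was also higher in HT fish. CUST_14551 was at 6.63 to 7.01 in HT fish and 6.83 to 7.40 in LT fish, a log2 difference of -0.27 (SE 0.14). CUST_14552 was at 6.65 to 7.35 in HT fish and 6.42 to 6.57 in LT fish, so that each HT fish was above each LT fish. The share of all probes of which that is true was not counted, so nothing is read from it. CUST_14553 was at 6.65 to 7.36 in HT fish and 6.55 to 6.66 in LT fish. The limma adjusted p of the 3 probes was 0.742, 0.572 and 0.656 in this order, and CUST_14552 and CUST_14553 were well above background in 3 of 10 fish. The level of aquaporin 8 is therefore uncertain, also as a companion of aqp1.

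The Na+/K+ ATPase subunits gave differences of opposite sign, neither past the test. Beta 1 (CUST_2073) had 8.85, 12.31, 12.25, 12.30 and 12.32 in HT fish and 10.76, 12.38, 11.53, 10.27 and 10.27 in LT fish. It was lowest in HT1, the fish highest in carbonic anhydrase, and at or above 12.25 in HT2 to HT5 and LT2. The HT minus LT difference was 0.57 (SE 0.72; adjusted p = 0.959 by limma) over 10 fish and 1.26 (SE 0.41; adjusted p = 0.183) over 9. Alpha (CUST_14154) averaged 8.75 ± 0.55 in HT fish and 9.44 ± 0.70 in LT fish (SD, n = 5 each). Its log2 difference of -0.69 (SE 0.36) had a limma adjusted p of 0.744.

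None of the remaining transport sequences passed the test. The vacuolar subunit (CUST_3095) averaged 9.45 ± 0.38 in HT fish and 9.52 ± 0.16 in LT fish, a log2 difference of -0.08 (SE 0.18). The solute carrier family member (CUST_10029) averaged 7.20 ± 0.185 in HT fish and 7.18 ± 0.20 in LT fish. Solute carrier family 3 member 2 (CUST_16329) averaged 8.86 ± 0.87 in HT fish and 8.10 ± 0.43 in LT fish (SD, n = 5 each throughout). Its log2 difference of 0.76 (SE 0.40) had a limma adjusted p of 0.744.

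Markers of tissues next to the gonad were read beside both genes, as the mean log2 level of each list. The 5 gut and pancreas sequences ranged from 7.09 to 7.37 in HT fish and from 7.27 to 7.97 in LT fish, with 5 of 5 lower in HT fish. The 4 liver and plasma sequences ranged from 7.10 to 8.98 in HT fish and from 8.50 to 9.35 in LT fish, with 3 of 4 lower in HT fish. The low end of the HT fish was HT1. Without it they ranged from 8.33 to 8.98, again with 3 of 4 lower. The 7 muscle sequences ranged from 7.03 to 7.65 in HT fish and from 7.00 to 7.58 in LT fish, with 3 of 7 lower in HT fish. Without HT1, again the lowest HT fish, the HT range was 7.355 to 7.65, with 2 of 7 lower. Of these sequences, 4 of 5 (gut and pancreas), 1 of 4 (liver and plasma) and 2 of 7 (muscle) were well above background in all 10 fish, and 0 were called. The part of these tissues in the aqp1 and carbonic anhydrase levels was not tested, and no red cell marker was named by probe. Of the 4 gonadal sequences, 1 was lower in HT fish over 10 fish, 0 over 9, and 0 were called. Anti-Müllerian hormone (CUST_20078) averaged 11.88 ± 2.63 in HT fish and 9.45 ± 2.26 in LT fish (SD, n = 5 each), a log2 difference of 2.42 (limma adjusted p = 0.775), and 3.58 without HT1 (adjusted p = 0.166). For dmrt1 (CUST_10632), a transcription factor of testis differentiation, the difference was 1.00 (adjusted p = 0.695), and 1.29 without HT1 (adjusted p = 0.169). The sequence named amh gene (CUST_1012) differed by 0.01 and was well above background in 3 of 10 fish. The brain-type aromatase cyp19a1b (CUST_537) averaged 9.54 ± 0.65 in HT fish and 9.75 ± 0.55 in LT fish (SD, n = 5 each), a difference of -0.21, and of 0.0022 without HT1.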

How the data were processed

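The authors deposited 1 scanner file per array, holding foreground and background intensity values of each spot with no normalization between arrays, and a table of normalized log2 values for 21701 probes. The submitters' processing notes name Agilent Feature Extraction and limma. The scanner files were the starting point here and the deposited log2 table was an alternative.

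Median foreground and background intensities were put through normexp (offset 50) with all spots. After removal of the control spots, quantile normalization was run over the 10 arrays. Spots of 1 probe were then averaged, leaving out marked outliers where at least 1 spot was unmarked. HT and LT fish were compared with lmFit and eBayes in limma 3.58.1 (R 4.3.3) and Benjamini-Hochberg adjustment over 24200 probes. Calls required an adjusted p below 0.05, a change above 1.2-fold and reliability in all fish compared, where at least 50% of the spots of a probe had a foreground of 2 times the background or more, with no mark and no saturation. The adjusted p and fold rules, without the reliability rule, were tried on simulated data (HT against LT, 10 fish, 24200 probes). They found 95% of the probes changed by 3 on the log2 scale and 58% of those changed by 1, with 6 false calls. The simulated noise was independent between probes, with the residual SD of each probe, which had a median of 0.30. Pooled within groups, the SD was 1.44 for aqp1 and 2.94 for carbonic anhydrase, so these shares say little about the members.

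The members and lists were chosen with earlier results of these data known. Genes were named from 176 probe descriptions in the study's supplement, of which 176 were found on the array, and each gene is represented by its brightest probe over 10 fish. The named genes were the members, the transport list, the tissue markers, and the 5 sequences most correlated with each gene. No p-value is given for the members. With 5 arrays in a group, their number limits the precision. The replicates of a group were compared, and the closest pair, HT2 and HT3, correlated at 0.9915. They carry separate replicate labels and were counted as separate fish. Their carbonic anhydrase levels were both low, at 7.49 and 7.06 on CUST_17664, and are no ground for this.

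The file headers place the HT and LT arrays that share a replicate number on 1 slide. Deviations from the group means correlated within slides 1 to 5 at 0.374, 0.488, 0.0802, -0.233 and 0.188. The alternatives were other background corrections and scalings, the deposited table, outlier spots kept, each fish left out, reliability and fold rules, trended robust variances, array weights, the slide as a replicate block, and other probes of a gene. The correlation of deviations without HT1 was added after seeing the data. Figures were drawn with matplotlib 3.10.9.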

Additional observations from a re-analysis of the deposited data

Results flagged for a closer look

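A fish was marked where its gap to the next fish of its group, divided by the range of the group, passed Dixon's value of 0.71 for 5 fish. Of 84 groups tested, 2 for each of 42 named probes, 16 were marked. The 5% that chance marks holds for independent groups that were not picked by their values. Some of these probes were picked for their likeness to a member, and all HT groups share the array of HT1. The 16 are therefore not read against that 5%. None of the 8 aqp1 and carbonic anhydrase probes was among the 16 in either group.

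HT1 was the marked fish in 8 of the 16. It was low for sodium potassium ATPase alpha subunit (ratio 0.723, level 7.81 against 8.83 to 9.22 in the other HT fish), for Na+/K+ ATPase beta 1 (ratio 0.978, 8.85 against 12.25 to 12.32), for anti-Müllerian hormone (ratio 0.792, 7.25 against 12.27 to 13.59), for slow myosin heavy chain 3 (ratio 0.732, 7.10 against 8.72 to 9.31) and for apolipoprotein E (ratio 0.751, 8.19 against 11.63 to 12.77). It was high for 3 of the sequences most like carbonic anhydrase, namely tubulin delta 1 (ratio 0.822, 11.12 against 7.23 to 7.92), eukaryotic translation initiation factor 2B (ratio 0.817, 11.90 against 9.49 to 9.93) and histone H2B (ratio 0.724, 10.40 against 6.48 to 7.56). The carbonic anhydrase level of HT1, 15.53, was not marked, since HT5 at 10.10 lies between it and the rest.

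LT2 was high among the LT fish for anti-Müllerian hormone (ratio 0.746, 13.39 against 7.93 to 9.32), dmrt1 (ratio 0.763, 8.61 against 6.58 to 7.06), skeletal muscle myosin heavy chain (ratio 0.747, 6.75 against 6.45 to 6.53) and slow myosin heavy chain 3 (ratio 0.833, 8.58 against 6.52 to 6.86). LT3, the fish highest in aqp1, was high for phosphoenolpyruvate carboxykinase (ratio 0.872, 13.16 against 7.01 to 7.80) and low for cyp19a1b (ratio 0.835, 8.78 against 9.88 to 10.09). LT4, the LT fish highest in carbonic anhydrase, was high for histone H2B (ratio 0.863, 9.53 against 6.91 to 7.27). HT4 was high for myosin light chain 1 (ratio 0.846, 8.96 against 6.55 to 6.92).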

How the results depend on the processing

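The aqp1 and carbonic anhydrase differences kept their sign, lower in HT fish, under every alternative tried. Leaving out each fish in turn gave -2.79 to -1.52 for aqp1, nearest 0 without LT3, and -2.92 to -0.76 for carbonic anhydrase, with -2.92 without HT1 and -0.76 without LT4. Over the other alternatives the aqp1 difference lay between -2.81 and -2.06 and the carbonic anhydrase difference between -3.26 and -1.29. With array weights the aqp1 difference was -2.34 (SE 0.62). Their correlation lay between 0.0814 and 0.435 with each fish left out and between -0.0054 and 0.247 otherwise.

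The count of probes called was 0 under 9 of the 12 other settings. It was 540 after normexp and division by the 75th percentile, 1 when the scanner's processed signal was divided that way, and 2029 with array weights, and 0 to 66 with each fish left out, the 66 without LT2. Whether aqp1 or carbonic anhydrase probes were among those called was not counted. Scaling by the 75th percentile moved the median log2 difference of all probes to 0.19 for the processed signal and 0.39 after normexp. Of the transport probes, 2 (aquaporin 8) were called with normexp scaled by the 75th percentile and 3 with array weights, and 0 with each fish left out. With normexp scaled by the 75th percentile, aquaporin 8 (CUST_14551) turned to 0.35, below the shift of all probes. With each fish left out, the solute carrier family difference (CUST_10029) ranged from -0.022 to 0.11 and the vacuolar subunit difference (CUST_3095) from -0.19 to 0.028. The first turned negative without HT2 (-0.0098), HT3 (-0.0014), HT5 (-0.0043), LT1 (-0.011) and LT2 (-0.022), and the second positive without HT5. The causes were not tested.

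The slides pair 1 HT and 1 LT array, but not every pair deviated together. With the replicate block the aqp1 difference was -2.32 (SE 0.79), the carbonic anhydrase difference -1.39 (SE 1.40), and 0 probes were called, so the block changed no call. The number of arrays and, for carbonic anhydrase in HT4, signal near the negative controls limit these values.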
